A study of Homo sapiens with 4 samples.

Results

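The genes described here are 8 enzymes of cholesterol synthesis, HMGCS1, MVD, IDI1, FDPS, FDFT1, SQLE, LSS and DHCR7, taken by their gene names from the count data of HGC-27 cells. All 8 were listed in every library, among 31907 gene names in all. HGC-27 is an established human gastric cancer (GC) cell line. RNA was sequenced from 2 libraries of cells that received PBS and 2 libraries of cells that received 200 ng/ml recombinant IL-17B (rIL-17B), a cytokine that binds the receptor IL-17RB, each for 48 h. The comparison asks which transcripts differ in amount after the cytokine. Nothing in the labels says whether the replicates were separate cultures, so the p-values below measure the spread between libraries, which may be technical.

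Cells make cholesterol from acetyl-CoA. HMGCS1 forms HMG-CoA, which is reduced to mevalonate. Mevalonate is phosphorylated and then decarboxylated by MVD to isopentenyl diphosphate, which IDI1 converts to its isomer. FDPS joins these units into farnesyl diphosphate, the point at which the branches to prenylated proteins, dolichol and ubiquinone leave the pathway. FDFT1 (squalene synthase) makes squalene, the first product committed to sterols, SQLE (squalene epoxidase) oxidizes it with molecular oxygen, and LSS folds the epoxide into lanosterol. DHCR7 reduces the sterol ring at the end of the pathway. The genes are known as targets of the transcription factor SREBP-2, which is released to the nucleus when sterols in the endoplasmic reticulum run low and which acts together with NF-Y, a factor that binds CCAAT boxes.

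The promoters of the members are shown because SREBP-2 is known to act on promoters of this pathway beside NF-Y, and the 4 printed are of HMGCS1 and LSS, whose levels were lower in both rIL-17B libraries, of FDPS, which was higher in replicate 1, and of MVD, which had the smallest range. RefSeq promoters (GRCh38.p14) were held for HMGCS1, MVD, IDI1, FDPS, LSS and DHCR7, in 10 entries. FDFT1 and SQLE had none. The 250 bases before the transcript start are printed 5′ to 3′ on the strand of the gene, from chr5:43313413-43313662 (minus strand) for HMGCS1, chr21:46228775-46229024 (minus strand) for LSS, chr1:155308616-155308865 (plus strand) for FDPS and chr16:88663092-88663341 (minus strand) for MVD. Capitals mark CCAAT, or ATTGG where the box lies on the other strand.
HMGCS1: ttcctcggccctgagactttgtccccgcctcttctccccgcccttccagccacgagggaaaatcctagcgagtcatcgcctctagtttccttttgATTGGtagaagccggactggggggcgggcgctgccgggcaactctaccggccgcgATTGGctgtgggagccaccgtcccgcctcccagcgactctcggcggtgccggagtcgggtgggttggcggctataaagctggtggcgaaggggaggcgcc
LSS: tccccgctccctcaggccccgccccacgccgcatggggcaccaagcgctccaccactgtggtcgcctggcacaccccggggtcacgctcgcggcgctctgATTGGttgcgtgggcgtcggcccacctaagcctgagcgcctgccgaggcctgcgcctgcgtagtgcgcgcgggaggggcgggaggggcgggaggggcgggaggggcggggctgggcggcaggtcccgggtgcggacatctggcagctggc
FDPS: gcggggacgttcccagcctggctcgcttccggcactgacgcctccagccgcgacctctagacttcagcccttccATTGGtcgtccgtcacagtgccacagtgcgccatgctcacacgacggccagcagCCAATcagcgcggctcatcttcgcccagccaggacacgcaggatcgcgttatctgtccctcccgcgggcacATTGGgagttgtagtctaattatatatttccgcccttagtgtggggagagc
MVD: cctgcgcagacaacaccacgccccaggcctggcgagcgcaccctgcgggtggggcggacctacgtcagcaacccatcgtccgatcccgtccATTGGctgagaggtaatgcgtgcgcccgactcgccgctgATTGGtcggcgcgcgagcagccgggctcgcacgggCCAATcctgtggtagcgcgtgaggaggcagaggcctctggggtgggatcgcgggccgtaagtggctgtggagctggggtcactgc

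Each of these 4 promoters held at least 1 CCAAT box. The printed entry of HMGCS1 had 2, starting 155 and 100 bases before the transcript start, while the other HMGCS1 entry, which is not printed, had 0. LSS had 1 at 150 bases, FDPS had 3 at 176, 122 and 51 bases, and MVD had 3 at 159, 120 and 85 bases. Of the 10 entries 7 held the box on either strand, with 1 or more for each of the 6 genes, and 32.0% of 35116 RefSeq windows of the same length did. At least 2 boxes were found in 6 of 10 entries and in 9.53% of all windows. In 1 entry of IDI1 boxes on the opposite strands overlapped and were counted separately. The GC box GGGCGG, on either strand, was in 9 of 10 entries and in 42.6% of all windows. The sterol regulatory element TCACNCCAC was in 0 of 10 entries and in 0.883% of all windows on either strand, and with 1 mismatch in 4 of 10 and 20.9%. CCAAT boxes were thus present both in promoters of genes that had both rIL-17B libraries below PBS and in those of genes that did not.

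rIL-17B replicate 1 stood apart from the other libraries. The collagen gene COL1A2, for example, had 1.09 CPM (counts per 1000000 counts of the library, the scale of the levels given in CPM below) there, against 5516 and 5248 CPM with PBS and 4699 CPM in rIL-17B replicate 2. Whether it holds HGC-27 cells that received rIL-17B, as its label says, was not tested, so every value of it below is that of the library with this label. The libraries held between 12888029 and 17555879 counts, and 3 counts, the smallest level taken as shown, corresponded to between 0.171 and 0.233 CPM. Between the 2 PBS libraries 104 of 16361 genes tested were at least 2-fold apart, and between the 2 rIL-17B libraries 2771 were. The summed level of 8 mesenchymal markers was 56214 and 55263 CPM with PBS, 1112 CPM in rIL-17B replicate 1 and 47051 CPM in replicate 2. That of 8 epithelial markers was 790 and 798 CPM with PBS, 1827 CPM in rIL-17B replicate 1 and 1012 CPM in replicate 2. KRT8 and KRT18, keratins of simple epithelia, were present in all libraries, while the adherens junction gene CDH1 was between 0.440 and 0.753 CPM. The summed level of 8 monocyte markers, listed because the library protocol speaks of monocytes, was between 8.55 and 10.8 CPM, but in rIL-17B replicate 1 5 of the 8 were at 0 and CSF1R alone had 8.14 CPM, against 3.90 and 5.59 CPM with PBS and 6.15 CPM in replicate 2. That of 8 glial markers was 178 and 279 CPM with PBS, 11.6 CPM in rIL-17B replicate 1, and 127 CPM in replicate 2. In replicate 1 5 of the 8 were at 0, the lineage factors OLIG1 and OLIG2 among them, of which 1 (SOX10) was at 0 in every library. In each of these bulk libraries fewer cells of a kind and less RNA per cell cannot be told apart. Since rIL-17B replicate 1 differed so much, the tests of the enzymes are also given without each rIL-17B library.

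Per gene length the 8 enzymes were unequal in level, and the order was partly shared by the libraries. On the scale of CPM per kilobase of the union of annotated exons, FDFT1 was highest with PBS at 32.5 ± 2.78 (SD, n = 2 libraries), followed by DHCR7 at 27.1 ± 4.93 and HMGCS1 at 23.5 ± 3.53. SQLE had 15.4 ± 3.70 and LSS 11.5 ± 1.71, while IDI1 had 10.9 ± 0.750 and FDPS 10.8 ± 1.02. MVD was lowest at 6.52 ± 0.592. The differences among LSS, IDI1 and FDPS were within the SD of the libraries. DHCR7 was above HMGCS1 in each library, at 23.7 against 21.0 and 30.6 against 26.0 with PBS. In replicates 1 and 2 of rIL-17B it had 30.5 against 20.9 and 23.8 against 20.1. Between 62.5% (MVD) and 93.1% (FDFT1) of 16093 genes with a length had a lower level with PBS. In rIL-17B replicate 1 SQLE took rank 7 of 8 instead of 4, and FDPS took rank 4 instead of 7. In rIL-17B replicate 2 SQLE was again at rank 4 and LSS was at rank 7 instead of 5. With the longest transcript as the length, FDFT1, DHCR7, HMGCS1, SQLE and MVD kept their ranks with PBS, and FDPS moved to rank 5, LSS to 6 and IDI1 to 7. With this length SQLE was the lowest in rIL-17B replicate 1 at rank 8, with MVD at 6, HMGCS1 at 4 and FDPS at 3. In rIL-17B replicate 2 MVD was again at rank 8.

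**Figure D1:**
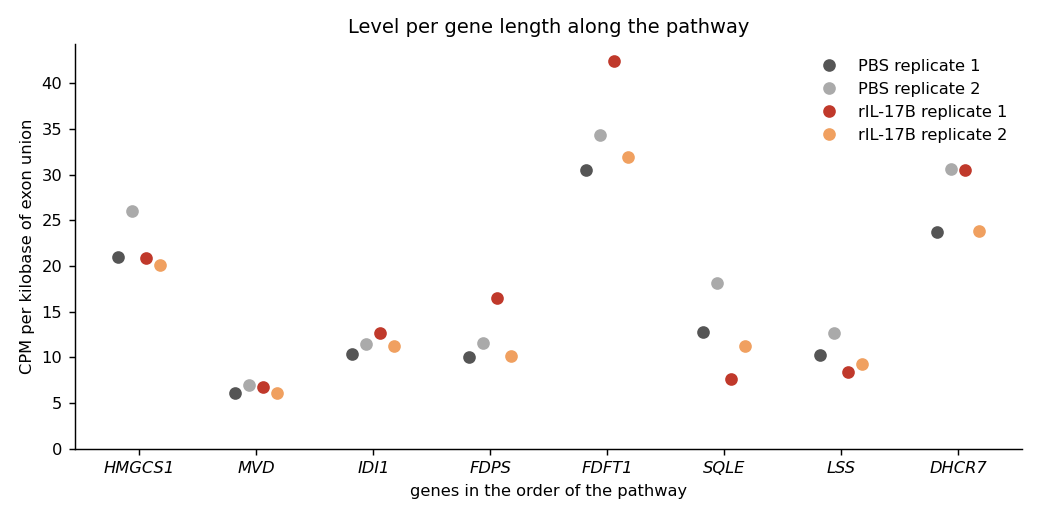
Level of each enzyme gene in CPM per kilobase of exon union (y axis) in the order of the pathway (x axis), with 1 point for each library. FDFT1 had the highest point in every library and MVD the lowest, and rIL-17B replicate 1 lay above the other libraries for FDFT1 and FDPS and below them for SQLE and LSS.

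The steps from HMG-CoA to farnesyl diphosphate showed levels that overlapped between the groups, except for HMGCS1. HMGCS1 (ENSG00000112972.14, chromosome 5, 43289395 to 43313512, GENCODE 29 on GRCh38) had 98.9 and 122 CPM in the PBS libraries against 98.3 and 94.5 CPM in replicates 1 and 2 of rIL-17B. Both rIL-17B libraries were lower than both PBS libraries, but the exact Poisson 95% interval of PBS replicate 1 (94.1 to 104 CPM) overlapped those of both. The interval was 93.3 to 104 CPM in rIL-17B replicate 1, nearly the same, and 90.0 to 99.2 CPM in rIL-17B replicate 2. MVD (ENSG00000167508.11, chromosome 16, 88651935 to 88663161) had 28.8 and 32.7 CPM in the PBS libraries against 31.7 and 28.9 CPM after rIL-17B. IDI1 (ENSG00000067064.11, chromosome 10, 1039152 to 1049170) had 45.2 and 49.8 CPM in the PBS libraries against 55.3 and 48.6 CPM after rIL-17B. In both genes rIL-17B replicate 2 lay between the PBS libraries. FDPS (ENSG00000160752.14, chromosome 1, 155308748 to 155320666) had 37.6 and 43.0 CPM with PBS, 61.5 CPM in rIL-17B replicate 1 and 37.8 CPM in replicate 2. The rIL-17B libraries differed 1.63-fold in FDPS, more than the PBS libraries (1.14-fold), and the interval of replicate 1 (57.6 to 65.7 CPM) was clear of all others. Of 8 annotated FDPS pseudogenes 5 were counted, with between 0 and 6 counts a library in all, against at least 554 counts for FDPS itself.

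Of the steps from squalene onwards, SQLE and LSS had both rIL-17B libraries under the PBS range, FDFT1 was higher in replicate 1 alone, and DHCR7 overlapped. FDFT1 (ENSG00000079459.12, chromosome 8, 11795573 to 11839309) had 159 and 179 CPM with PBS, 221 CPM in rIL-17B replicate 1 and 166 CPM in replicate 2. Only replicate 1 was outside the range of PBS. SQLE (ENSG00000104549.11, chromosome 8, 124998497 to 125022283) had 55.2 and 77.7 CPM with PBS, 32.8 CPM in rIL-17B replicate 1 and 48.6 CPM in replicate 2. Both rIL-17B libraries were below both PBS libraries, and the PBS libraries themselves were 1.41-fold apart, the widest gap between them among the 8 genes. The interval of rIL-17B replicate 2 (45.4 to 52.0 CPM) overlapped that of PBS replicate 1 (51.6 to 59.0 CPM) by a small stretch, and that of rIL-17B replicate 1 (30.0 to 35.9 CPM) overlapped none. LSS (ENSG00000160285.14, chromosome 21, 46188141 to 46228824) had 74.7 and 92.2 CPM in the PBS libraries against 60.9 and 67.0 CPM in replicates 1 and 2 of rIL-17B. The groups did not overlap in level, but the interval of rIL-17B replicate 2 (63.3 to 71.0 CPM) overlapped that of PBS replicate 1 (70.5 to 79.1 CPM), as in SQLE. DHCR7 (ENSG00000172893.15, chromosome 11, 71428193 to 71452868) had 98.4 and 127 CPM in the PBS libraries against 127 and 98.9 CPM after rIL-17B, so that each rIL-17B library matched the level of 1 PBS library. The Poisson intervals cover counting error only and not the spread between libraries. They treat each read as independent, and PCR copies of a molecule are counted separately, so the intervals may be too narrow. The exons of HMGCS1, IDI1, FDPS, FDFT1 and LSS overlap those of counted genes on the opposite strand, whose reads cannot be told apart if strand was not used, and DHCR7 overlaps such a gene outside its exons.

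**Figure D2:**
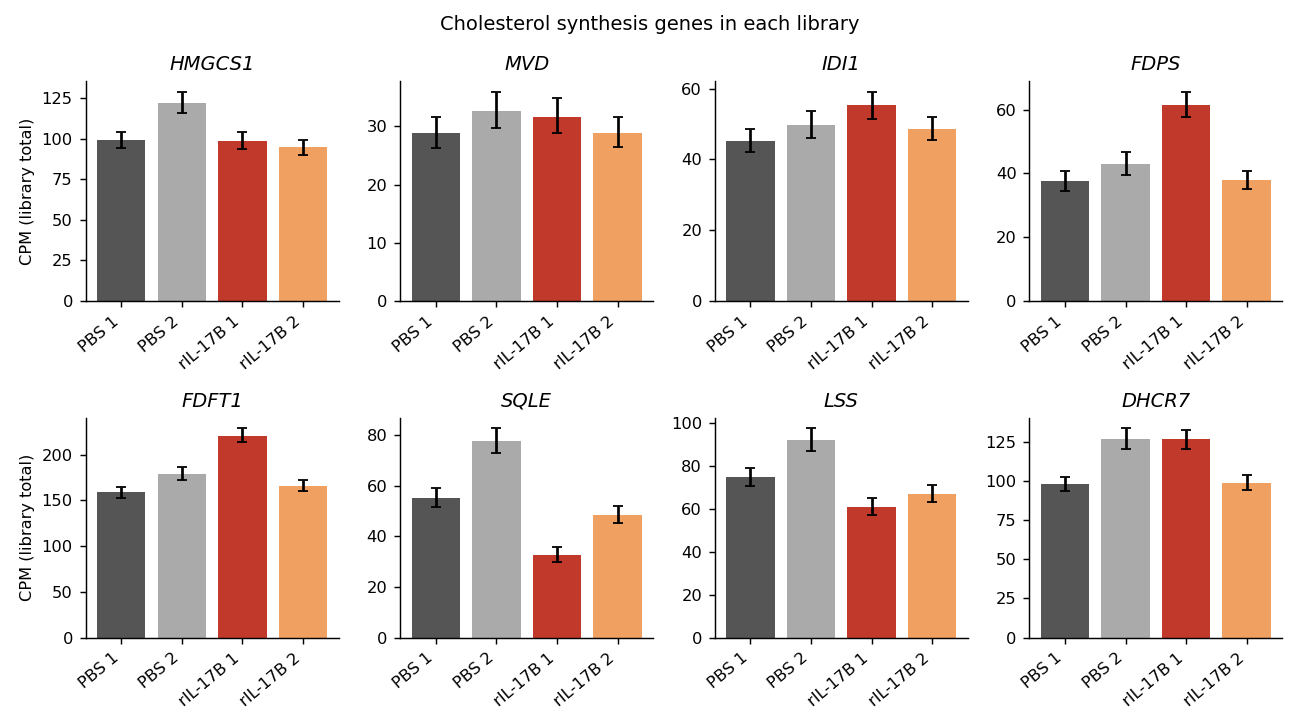
CPM of the 8 genes in each library (bars) with exact Poisson 95% intervals of the counts (lines), which cover counting error only. In SQLE and LSS both rIL-17B bars are below both PBS bars, FDPS and FDFT1 stand out in rIL-17B replicate 1, and PBS replicate 2 is above PBS replicate 1 in every panel.

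The sizes of the differences were unlike in the 2 rIL-17B libraries. Relative to the PBS mean (log2 ratio with 0.5 CPM added to each value), rIL-17B replicate 1 had SQLE at -1.01, LSS at -0.45 and HMGCS1 at -0.17, MVD at 0.04, DHCR7 at 0.17, IDI1 at 0.22, FDFT1 at 0.39 and FDPS at 0.60. In replicate 2 SQLE was at -0.45, LSS at -0.31, HMGCS1 at -0.23 and DHCR7 at -0.19, and the other 4 genes were between -0.09 and 0.03. SQLE was therefore the lowest of the 8 in both libraries and LSS the second lowest. The root mean square of the ratio over the 8 genes was 0.48 in replicate 1, where it was 1.39 over all 16361 genes tested, and 0.22 against 0.28 in replicate 2. Of all genes tested, 79.0% were nearer to the PBS mean than SQLE in replicate 1 and 90.0% in replicate 2. The PBS libraries had root mean squares of 0.16 and 0.14 over the 8 genes.

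No enzyme of the 8 passed the test between rIL-17B and PBS with all 4 libraries. In the quasi-likelihood test of edgeR, adjusted by Benjamini-Hochberg over 16361 genes, 0 of 8 had an adjusted p under 0.05, where the share of all genes called was 0%. The log2 fold change was -0.76 for SQLE (standard error 0.33, adjusted p = 0.661), -0.45 for LSS (standard error 0.17, adjusted p = 0.661) and -0.27 for HMGCS1 (standard error 0.14, adjusted p = 0.661). The other values were -0.09 for MVD, -0.08 for DHCR7, 0.06 for IDI1, 0.12 for FDFT1 and 0.22 for FDPS, with adjusted p between 0.694 and 0.824 in the same edgeR test. An unadjusted p under 0.05 was found for 0 of the 8 genes and for 226 of all genes in edgeR, and for 2 of the 8 and 457 of all genes in DESeq2. The median of the 8 was -0.08, with 3 genes above and 5 below 0, beside a median of -0.03 over all genes tested. SQLE, LSS and HMGCS1 had both rIL-17B libraries below both PBS libraries, 3 of 8 beside 27.5% of all genes tested, and 0 of 8 had both above, beside 31.5% of all genes tested. With TMM scaling MVD joined the former, which made 4 of 8, beside 4964 of 16361 genes tested. An exact permutation test of 2 against 2 libraries cannot give a two-sided p under 0.333.

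Without rIL-17B replicate 1, SQLE was the enzyme that passed edgeR's test, and this call depended on the scaling. Its log2 fold change was -0.45 (standard error 0.11, adjusted p = 0.0026 in edgeR), 1 of 8 genes called lower beside 2.3% of 17103 genes, and 0 of 8 were called higher beside 0.643%. LSS had -0.31 (adjusted p = 0.0505) and HMGCS1 -0.23 (adjusted p = 0.196) in the same fit. This fit compares 1 library with 2 and assumes that the lone library varies like the PBS libraries. With upper-quartile scaling SQLE had an adjusted p of 0.00141 and LSS of 0.034 in edgeR. With library totals SQLE had 0.204 in edgeR, and with DESeq2 it had 1.0, settings that called 0 of 17103 genes, with 2150 and 447 genes at an unadjusted p under 0.05. The log2 fold change of SQLE was between -0.46 and -0.44 in these settings, so the size held and the call did not.

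Without rIL-17B replicate 2, which leaves the library that stood apart, 5 of the 8 enzymes passed. SQLE fell by 1.15 on the log2 scale (adjusted p = 2.4e-22 in edgeR), LSS fell by 0.59 (adjusted p = 3.64e-08) and HMGCS1 fell by 0.30 (adjusted p = 0.0025), 3 of 8 beside 31.9% of 17223 genes called lower. FDPS rose by 0.48 (adjusted p = 4.27e-05 in edgeR) and FDFT1 by 0.26 (adjusted p = 0.00589), 2 of 8 beside 23.2% called higher. Both shares were near those of all genes and are no result about the enzymes. SQLE, LSS and FDPS also passed with upper-quartile scaling, with library totals and with DESeq2, FDFT1 passed with both scalings but not DESeq2 (adjusted p = 0.0944), and HMGCS1 passed with upper-quartile scaling (adjusted p = 0.0108) but not with library totals (0.178) or DESeq2 (0.118), the former from edgeR. FDPS and FDFT1 had log2 fold changes of -0.09 and -0.03 when replicate 1 was left out instead, so their higher values were those of replicate 1. The glial marker list moved with SQLE and LSS: its summed level was highest in PBS replicate 2, then PBS replicate 1, then rIL-17B replicate 2, then rIL-17B replicate 1, the order of the libraries in both genes. The summed level of 8 proliferation genes was 1234 and 1194 CPM with PBS, 2466 CPM in rIL-17B replicate 1 and 1450 CPM in replicate 2, highest where FDPS and FDFT1 were highest. The other libraries did not share the order: the sum was lowest in PBS replicate 2, where FDPS and FDFT1 were above PBS replicate 1 and rIL-17B replicate 2. The part of the glial, mesenchymal, epithelial and proliferation genes in the differences was not tested.

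**Figure D3:**
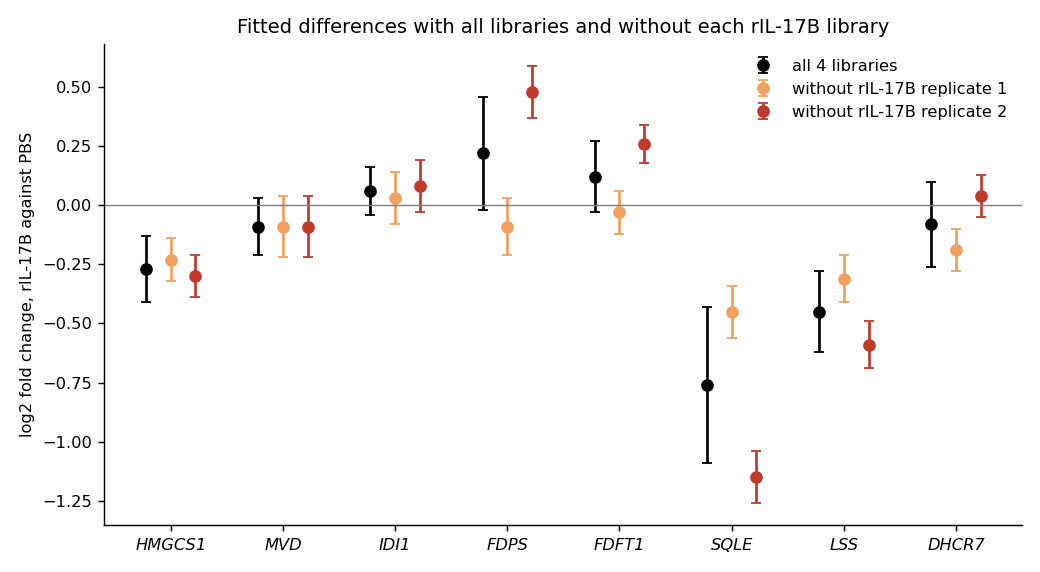
Fitted log2 fold change of rIL-17B against PBS from edgeR (points) with its standard error (lines) for all 4 libraries and without each rIL-17B library. SQLE, LSS and HMGCS1 are below 0 in all 3 fits, while FDPS and FDFT1 are above 0 with rIL-17B replicate 1 and at -0.09 and -0.03 without it.

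Ratios of counts within a library do not depend on the scaling between libraries, and in 7 of the 9 ratios computed the groups did not overlap. The pairs were chosen with the levels of the genes known and share genes, so the separation of a pair is a description. How often pairs of other genes separate was not computed, so the count is no result about the enzymes. Of single genes tested, 31.5% had both rIL-17B libraries above both PBS libraries and 27.5% had both below. The ratio of SQLE to FDFT1 counts was 0.35 and 0.43 with PBS, 0.15 in rIL-17B replicate 1 and 0.29 in replicate 2. The ratio of LSS to FDFT1 counts was 0.47 and 0.51 with PBS and 0.28 and 0.40 with rIL-17B. Both ratios were lower in each rIL-17B library than in any PBS library, and FDFT1 is the enzyme that precedes SQLE and LSS in the pathway. For SQLE to FDFT1, rIL-17B replicate 2 was under PBS replicate 1 by less than the gap between the PBS libraries. The ratio of FDPS to HMGCS1 counts was 0.38 and 0.35 with PBS and 0.63 and 0.40 with rIL-17B, higher in each rIL-17B library, although in replicate 2 by less than the gap between the PBS libraries. The ratio of FDFT1 to FDPS counts was 4.22 and 4.17 with PBS and 3.60 and 4.39 with rIL-17B, and the groups overlapped. These ratios of raw counts also carry the lengths of the 2 genes and are compared between libraries only.

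**Figure D4:**
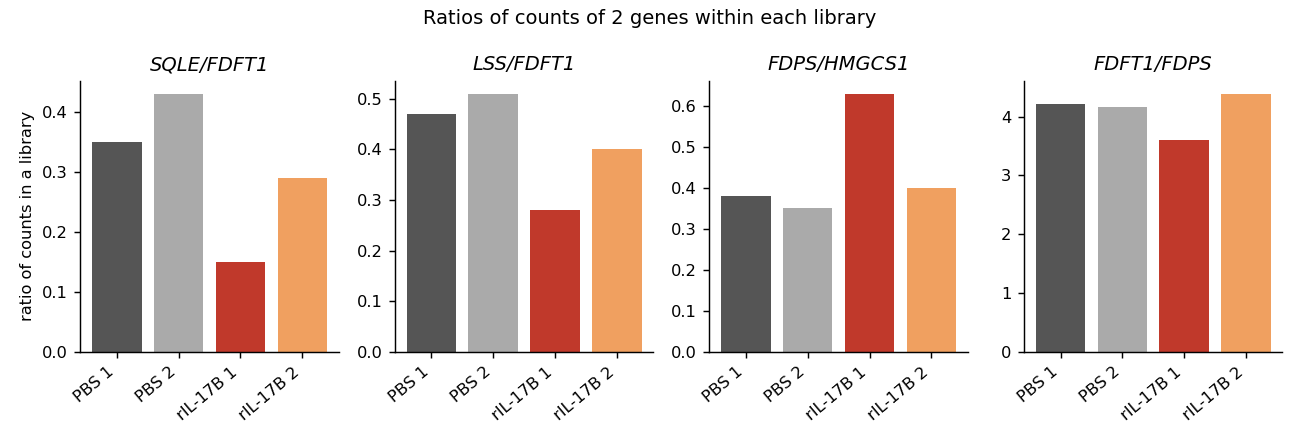
Ratio of the counts of 2 enzyme genes (y axis) in each library (bars). SQLE over FDFT1 and LSS over FDFT1 have both rIL-17B bars under both PBS bars, while FDFT1 over FDPS overlaps between the groups.

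All 8 enzymes were higher in PBS replicate 2 than in PBS replicate 1, by 1.10-fold (IDI1) to 1.41-fold (SQLE). The median log2 ratio of the 2 PBS libraries was 0.25 over the 8 genes and 0.02 over all genes tested, of which 28.2% were higher in PBS replicate 2 by at least the fold of IDI1 and 54.6% were higher at all. The 11 fatty acid synthesis genes, which are known targets of SREBP proteins too, were also all higher in PBS replicate 2, with a median of 0.17. The other 12 synthesis enzymes had a median of 0.08 with 9 higher, and the 11 sterol regulators had -0.01 with 5 higher. For DHCR7 the gap between the PBS libraries (1.29-fold) equalled the range over all 4 libraries, and for MVD too (1.14-fold). No replicate check of this difference exists, since it is 1 library against 1. The summed glial markers were also higher in PBS replicate 2, at 279 against 178 CPM, and their part was not tested.

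**Figure D5:**
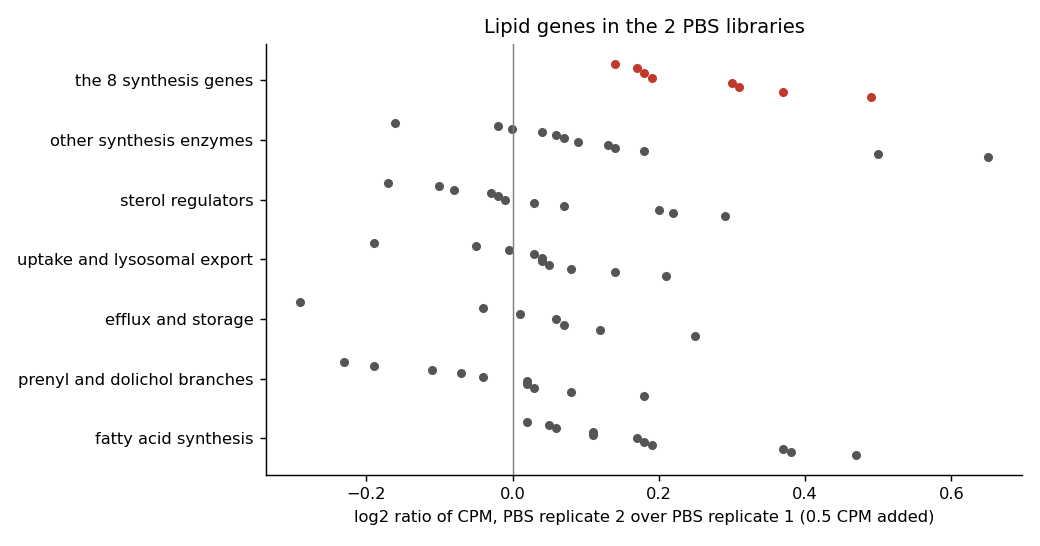
Log2 ratio of CPM in PBS replicate 2 over PBS replicate 1 (x axis, 0.5 CPM added to each value), with 1 point for each tested gene of the lipid gene lists (rows). The 8 synthesis genes and the 11 fatty acid synthesis genes are all to the right of 0, and the points of the other lists lie on both sides.

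The other 12 enzymes of sterol synthesis that were listed did not share a direction, with 6 above and 6 below 0 and a median log2 fold change of 0.01 in the fit of all libraries. 0 of 12 passed edgeR's test with all libraries or without rIL-17B replicate 1. TM7SF2, a sterol reductase, was the lowest at 9.68 and 15.4 CPM in the PBS libraries against 1.71 and 8.43 CPM after rIL-17B (log2 fold change -1.33, adjusted p = 0.661 in edgeR). SC5D, which acts just before DHCR7, had 44.2 and 43.5 CPM in the PBS libraries against 35.0 and 37.5 CPM after rIL-17B (log2 fold change -0.34). These were the 2 of 12 below PBS in both rIL-17B libraries, beside 27.5% of all genes tested, while 3 of 12 (PMVK, LBR and EBP) were above, beside 31.5%. EBP, a sterol isomerase, had 38.7 and 40.6 CPM in the PBS libraries against 62.4 and 40.9 CPM after rIL-17B (log2 fold change 0.30). Without replicate 1 the log2 fold change of EBP was 0.04. MSMO1, which demethylates lanosterol products, was between 49.9 and 52.7 CPM in all libraries. Exons of 4 of the 12 overlap another counted gene, TM7SF2 among them.

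The 11 genes that control the pathway had log2 fold changes between -0.54 and 0.31, and 0 passed the test. SREBF2, which encodes SREBP-2, had 190 and 220 CPM in the PBS libraries against 236 and 193 CPM after rIL-17B (log2 fold change -0.01, standard error 0.13, adjusted p = 0.975 in edgeR). INSIG1, which holds SREBP in the endoplasmic reticulum and is its target, had 77.6 and 89.3 CPM in the PBS libraries against 86.8 and 80.6 CPM after rIL-17B (log2 fold change -0.07). INSIG2, its relative, had 26.7 and 23.7 CPM with PBS, 12.5 CPM in rIL-17B replicate 1 and 23.4 CPM in replicate 2 (log2 fold change -0.54). The highest values were 0.31 for NFYA and 0.19 for NFYC, subunits of NF-Y, and the lowest besides INSIG2 was -0.14 for the third subunit NFYB. Of the 11, 5 were above and 1 below both PBS libraries in both rIL-17B libraries, beside 31.5% and 27.5% of all genes tested, and the median was -0.01.

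Uptake, export and the neighbouring branches had 0 genes past the threshold with all libraries. Of 10 genes of uptake and lysosomal export, SCARB1, a receptor for high-density lipoprotein, was the highest at 207 and 219 CPM in the PBS libraries against 379 and 233 CPM after rIL-17B (log2 fold change 0.44), and NPC1, the lysosomal exporter, followed at 0.12. LRP1, a lipoprotein receptor with many other ligands, had 1549 and 1603 CPM with PBS, 323 CPM in rIL-17B replicate 1 and 1379 CPM in replicate 2 (log2 fold change -0.92), and LIPA, the lysosomal acid lipase that frees cholesterol from its esters, had -0.53. Of the 10, 2 were above PBS in both rIL-17B libraries, beside 31.5% of all genes tested, and 3 were below, LRP1 and LIPA among them, beside 27.5%. Of 7 tested genes of efflux and storage, the exporter ABCA1 had 90.8 and 74.3 CPM with PBS, 2.74 CPM in rIL-17B replicate 1 and 79.1 CPM in replicate 2 (log2 fold change -1.02). ABCG1 was at -0.62 with under 1 CPM in every library, and the sterol-binding genes OSBPL10 and OSBPL5 were at 0.29 and 0.19. Of 10 genes of the prenyl and dolichol branches, PDSS1 was highest at 0.49 and FNTA and GGPS1 were lowest at -0.26 and -0.23.

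The fatty acid synthesis genes had a median log2 fold change of 0.08 with 7 of 11 above 0, and 3 were above and 2 below both PBS libraries in both rIL-17B libraries, beside 31.5% and 27.5% of all genes tested. FADS2, a desaturase, had 106 and 147 CPM in the PBS libraries against 58.4 and 96.8 CPM after rIL-17B (log2 fold change -0.75), and ACSS2, which makes acetyl-CoA from acetate, had 20.1 and 26.2 CPM in the PBS libraries against 10.1 and 17.7 CPM after rIL-17B (log2 fold change -0.78). Both had the order of libraries seen in SQLE and LSS. Without rIL-17B replicate 1, FADS2 was the gene of this list that passed edgeR's test (log2 fold change -0.38, adjusted p = 0.00328), in the fit whose calls were lost with library totals and DESeq2. FADS1, another desaturase, and ACACA, which commits acetyl-CoA to fatty acids, were highest at 0.34 and 0.30, and both were above PBS in both rIL-17B libraries.

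Outside the gene lists of this report, the genes nearest in pattern to the median of the 8 enzymes were CTDP1, AHDC1, C2orf68, REV1 and C19orf54. All listed genes, the enzymes of sterol synthesis among them, were left out of this search, so it cannot show whether such enzymes were nearer. The likeness was the Euclidean distance over the 4 libraries of the log2 level minus its PBS mean, and it was between 0.0118 and 0.0381 for the 5 genes. The median pattern itself was high in PBS replicate 2 and rIL-17B replicate 1, at -0.12 and 0.12 with PBS and 0.11 and -0.13 with rIL-17B, and 670 of 9444 candidate genes were within 0.2 of it, so the 5 do not stand far from many others.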

How the data were processed

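The authors deposited raw counts, whole numbers of reads per gene name, in 1 file for each of 4 libraries made by Smart-seq2 from an oligo-dT primer. The submitters' processing notes name hg38, Bowtie2 2.2.3, HISAT2 2.1.0, TopHat2 and HTSeq 0.6.0. The annotation and the strand setting are not given in the sources used here. Genes with 0 counts were not listed and were set to 0. Names repeated with the same count (83 to 98 per library) were used once, and 22 to 25 entries turned into date numbers (0.228% to 0.244% of counts) were dropped.

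CPM is the count divided by the library total. The test between groups was the quasi-likelihood F test of edgeR 4.0.16 (R 4.3.3), after TMM scaling and filterByExpr, adjusted by Benjamini-Hochberg over all genes with a threshold of 0.05, tested first on simulated data, with DESeq2 1.42.0 as an alternative. The standard error is the log2 fold change divided by the square root of F. All 8 genes passed the filter. Lengths and coordinates came from GENCODE 29, in which 97.84% of names were found once. The authors' test for these libraries is not given in the sources used here.

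The members, gene lists and tests were chosen with earlier results of these data known. The lists were written by hand, and some genes of the pathway are not reported here. Genes were named by this rule: all members, any of the other synthesis enzymes, the 2 highest and 2 lowest log2 fold changes of each other list, and the 5 nearest patterns. Some genes this rule names are left out, and further genes of these lists were chosen after their values were seen. Figures were drawn with Python 3.11.15.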

Additional observations from a re-analysis of the deposited data

How the results depend on the processing

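The count of genes called between rIL-17B and PBS was 0 with upper-quartile scaling, library totals, DESeq2, no low-count filter, a minimum of 10 counts per library, a threshold of 0.1 and the replicate block. With 1 library left out it was between 0 and 9731, with 504 without rIL-17B replicate 1 (516 with upper-quartile scaling) and 9489 without replicate 2 (9642 with upper-quartile scaling, 9731 with library totals and 5981 with DESeq2). The median log2 fold change of the 8 enzymes was between -0.21 and 0.11 in these fits, the latter without rIL-17B replicate 2 and with library totals. Scalings other than TMM, and DESeq2, in fits without a rIL-17B library were chosen after seeing the data.

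The sign changed for FDPS without rIL-17B replicate 1 (-0.09, and -0.11 with upper-quartile scaling), for FDFT1 without it (-0.03, then -0.04 with upper-quartile scaling and -0.02 with library totals and DESeq2) and for IDI1 without PBS replicate 1 (-0.0048). It changed for DHCR7 without PBS replicate 2 (0.11) and without rIL-17B replicate 2 (0.04, then 0.08, 0.17 and 0.03 with upper-quartile scaling, library totals and DESeq2), and for MVD without rIL-17B replicate 2 with library totals (0.05). Over the fits that left out 1 library IDI1 was between -0.0048 and 0.22, FDPS between -0.11 and 0.61 and FDFT1 between -0.04 and 0.39, and with TMM alone their highest values were 0.12, 0.48 and 0.26. DHCR7 was between -0.24 and 0.17. SQLE was between -1.15 and -0.44, LSS between -0.59 and -0.30 and HMGCS1 between -0.41 and -0.12 over 16 alternatives. The causes were not tested.

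With the replicate number as a block, 0 of 16361 genes were called, and SQLE had a log2 fold change of -0.78 (unadjusted p = 0.0149, adjusted p = 0.675 in edgeR). The deviations of same-numbered libraries correlated at 0.0805 across genes, and these libraries share only a number. With 2 libraries a group, of which 1 stood apart, a difference of the size of that of SQLE did not pass in the fit of all libraries.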
